A study of Mus musculus with 2 samples.

Results

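The regions described here are the DNase I accessible regions of newborn mouse stomach that lie at the start of a long non-coding RNA (lncRNA) gene and away from every protein-coding start. Peaks of both replicates that overlapped by 1 bp or more were merged, and a merged region was kept when its centre lay within 1 kb of a start of a lncRNA transcript and more than 5 kb from every start of a protein-coding gene (GENCODE M21, build mm10). This gave 1797 of 105543 shared regions, which is 1.70% (95% Wilson interval 1.63 to 1.78). DNase-seq was done on stomach tissue of B6NCrl mice at postnatal day 0, with a single group made up of 2 biological replicates, each of 1 library. Both libraries carry the same donor in the labels, no sex was recorded, and whether the replicates are separate animals or pools is not given. Replicate 2 was read on a pair of sequencer models, and no model is named for replicate 1. No treatment or mutant was included, so no groups of samples were compared, and each measurement below is given in both replicates, with counts and intervals that cover counting error only.

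DNase I cuts DNA most readily where nucleosomes are displaced, so its peaks mark promoters, enhancers and insulators that are bound by regulatory proteins. A lncRNA gene is transcribed by RNA polymerase II from such an open start, but its product is not translated. Some lncRNAs act on chromatin or in nuclear bodies, others are mainly carriers of microRNAs or small nucleolar RNAs, and for many no function is known. Starts that sit far from any coding gene allow the accessibility of a lncRNA start to be read without that of a shared coding promoter.

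Sequences of 12 of these regions are shown because they carry the compositions and motif matches described below, and they cover the most accessible lncRNA start, starts of small nucleolar RNA and microRNA host genes, and imprinted genes. Each is the whole merged region read from mm10 on the strand of the lncRNA, 5′ to 3′, with matches to the searched motifs in capitals.
1810026B05Rik (chr7:73558616-73558765, minus strand): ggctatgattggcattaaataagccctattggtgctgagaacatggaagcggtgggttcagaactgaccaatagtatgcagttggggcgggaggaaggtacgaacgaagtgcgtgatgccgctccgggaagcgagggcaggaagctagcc
1700096K18Rik (chr5:25529636-25529805, plus strand): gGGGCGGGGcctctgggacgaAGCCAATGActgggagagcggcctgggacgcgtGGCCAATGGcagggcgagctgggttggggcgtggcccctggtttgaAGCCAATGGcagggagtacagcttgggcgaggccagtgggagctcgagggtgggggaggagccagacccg
5430416N02Rik (chr5:100429556-100429705, minus strand): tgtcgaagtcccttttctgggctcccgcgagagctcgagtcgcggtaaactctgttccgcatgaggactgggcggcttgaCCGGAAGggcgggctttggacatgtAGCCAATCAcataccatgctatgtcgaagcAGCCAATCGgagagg
Snhg6 (chr1:9944096-9944265, minus strand): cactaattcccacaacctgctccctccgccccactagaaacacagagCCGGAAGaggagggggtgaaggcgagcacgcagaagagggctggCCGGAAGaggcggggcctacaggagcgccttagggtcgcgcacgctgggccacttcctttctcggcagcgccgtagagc
Snhg15 (chr11:6528716-6528905, minus strand): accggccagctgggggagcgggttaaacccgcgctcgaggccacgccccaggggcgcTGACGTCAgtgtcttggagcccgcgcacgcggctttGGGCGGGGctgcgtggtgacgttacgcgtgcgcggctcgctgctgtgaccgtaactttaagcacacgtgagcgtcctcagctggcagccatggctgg
6720427I07Rik (chr13:48545816-48545965, minus strand): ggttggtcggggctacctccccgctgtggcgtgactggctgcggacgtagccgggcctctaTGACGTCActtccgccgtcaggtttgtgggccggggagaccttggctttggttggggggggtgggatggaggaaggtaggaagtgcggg
4631405K08Rik (chr1:193510156-193510305, minus strand): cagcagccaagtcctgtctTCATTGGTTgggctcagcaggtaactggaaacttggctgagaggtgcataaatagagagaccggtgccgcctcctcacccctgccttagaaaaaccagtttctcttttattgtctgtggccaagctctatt
2010103J01Rik (chr1:185312016-185312185, plus strand): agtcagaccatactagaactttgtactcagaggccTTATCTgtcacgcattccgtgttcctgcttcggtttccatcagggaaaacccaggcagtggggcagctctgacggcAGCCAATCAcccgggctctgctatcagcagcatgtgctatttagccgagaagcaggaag
AL805899.1 (chr4:88938476-88938645, minus strand): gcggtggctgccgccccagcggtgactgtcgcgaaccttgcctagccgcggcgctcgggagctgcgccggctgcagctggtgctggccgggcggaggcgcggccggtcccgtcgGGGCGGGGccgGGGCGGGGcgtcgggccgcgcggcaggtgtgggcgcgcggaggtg
Dnm3os (chr1:162217516-162217685, plus strand): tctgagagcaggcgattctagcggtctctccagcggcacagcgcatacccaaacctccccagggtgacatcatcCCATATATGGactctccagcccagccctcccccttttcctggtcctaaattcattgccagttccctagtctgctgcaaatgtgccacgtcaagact
Meg3 (chr12:109540816-109541005, plus strand): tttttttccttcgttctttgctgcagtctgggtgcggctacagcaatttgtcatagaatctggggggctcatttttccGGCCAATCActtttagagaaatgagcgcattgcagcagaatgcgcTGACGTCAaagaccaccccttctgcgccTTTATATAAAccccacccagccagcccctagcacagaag
Airn (chr17:12740356-12740525, plus strand): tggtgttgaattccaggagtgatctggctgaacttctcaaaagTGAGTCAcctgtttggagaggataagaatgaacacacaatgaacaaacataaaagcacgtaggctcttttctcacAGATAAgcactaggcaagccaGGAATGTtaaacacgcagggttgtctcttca
The capitals mark 3 NFY matches and a GC box in 1700096K18Rik, an ETS match followed by a pair of NFY matches in 5430416N02Rik, a pair of ETS matches in Snhg6, and a CRE with a GC box in Snhg15. They mark a CRE in 6720427I07Rik, 1 NFY match in 4631405K08Rik, a GATA and an NFY match in 2010103J01Rik, a pair of GC boxes in AL805899.1, and an SRF match in Dnm3os. In Meg3 they mark an NFY match, a CRE and overlapping TATA boxes, and in Airn an AP-1, a GATA and a TEAD match. No searched motif matched in 1810026B05Rik. A match says only that the letters are present.

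The most accessible lncRNA-only start belonged to 1810026B05Rik, which RefSeq names Chaserr, a lncRNA transcribed next to the chromatin remodeller gene Chd2 that limits Chd2 expression in the mouse. Its region had a deposited signal of 128 in replicate 1 and 132 in replicate 2. The signal is a whole number that the authors deposited for each peak with no stated unit, and it was compared only within a replicate. The second was 1700096K18Rik, with 124 and 134, and the third Gm6410, with 122 and 129. Gm13421, Gm10433, 5430416N02Rik, 4833417C18Rik, 1700028E10Rik, 6720427I07Rik and 2410006H16Rik completed the first 10. Among these 10 the signal lay between 116 and 128 in replicate 1 and between 120 and 134 in replicate 2. All 10 were CpG-rich by the definition given below, which was met by 249 of the 1797 regions. At the other end G730013B05Rik had the weakest region by signal, with 11 in replicate 1 and 12 in replicate 2. The next was 1700029M20Rik, with 15 and 13.

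The 1797 regions lay at 1304 lncRNA genes, of which 939 had 1 region, 274 had 2 and 91 had 3 or more. Where a region lay near the starts of several lncRNA genes it was credited to the nearest. Mir99ahg, 3110039I08Rik and AC132455.2 each had 7 regions, more than any other gene, and Dleu2 and A830008E24Rik each had 6. By gene type 1195 regions (66.5%) were at lincRNA genes, 347 (19.3%) at antisense genes and 223 (12.4%) at genes typed as processed transcript. A further 26 were at sense intronic, 5 at sense overlapping and 1 at bidirectional promoter genes. The median signal of lincRNA starts was 53 in replicate 1 and 64 in replicate 2, that of antisense starts 54 and 67, and that of processed transcript starts 58 and 69. CpG-rich sequence was present at 13.1% of the lincRNA, 8.93% of the antisense and 27.4% of the processed transcript regions. Outside coding gene bodies lay 81.7% of the regions, 16.3% lay in introns of coding genes and 2.00% in their exons. For all shared regions these shares were 45.1%, 43.6% and 11.3%. For distal regions at neither kind of start they were 54.8%, 42.6% and 2.66%. The rule and the gene types set these shares in part, and 3.85% of the lincRNA regions lay in a coding gene. The median distance to the nearest coding start was 33200 bp.

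In signal the lncRNA-only starts stood between the coding starts and the remaining distal regions. Their median signal was 53 in replicate 1 and 65 in replicate 2, against 64 and 76 at the 29576 regions within 1 kb of a protein-coding start, 46 and 57 at the 57860 other distal regions (over 5 kb from coding starts and over 1 kb from lncRNA starts), and 50 and 62 over all shared regions. As percentiles among the shared regions of each replicate the medians were 54.5 in replicate 1 and 54.4 in replicate 2 at lncRNA-only starts, 69.8 and 69.6 at coding starts, and 41.9 and 41.8 at other distal regions. In whole tissue, fewer cells with an open region and less opening in each cell cannot be told apart. The order was the same in both replicates, and the medians of the replicates lay close together within each class. The classes overlapped widely: the quartiles of the lncRNA-only starts ran from the percentile 29.9 to 77.8 in replicate 1 and from 29.8 to 78.0 in replicate 2. The top 10% of signals held 10.2% of the lncRNA-only starts in replicate 1 and 10.4% in replicate 2, 24.2% and 24.7% of the coding starts, and 3.95% and 3.42% of the other distal regions.

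**Figure D1:**
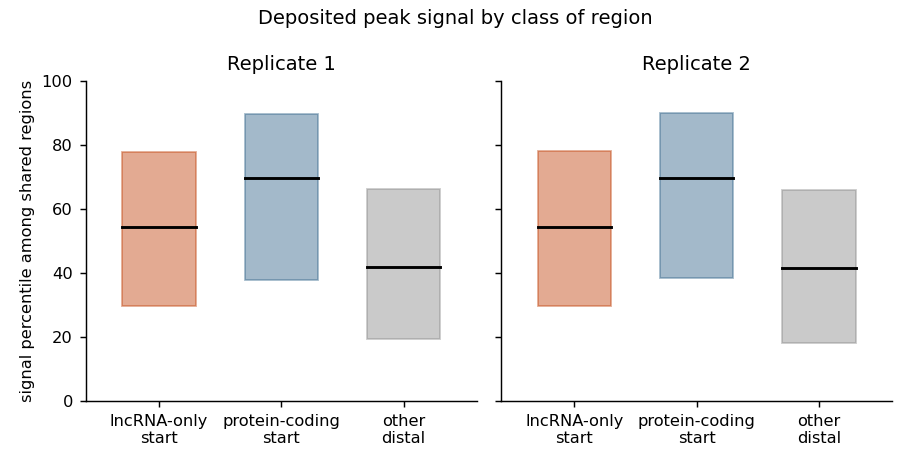
Signal percentile among shared regions (vertical axis, no unit) for lncRNA-only starts, protein-coding starts and other distal regions in each replicate; the black line is the median and the box spans the quartiles over regions. The median of the lncRNA-only starts (54.5 and 54.4) lies between that of coding starts (69.8 and 69.6) and that of other distal regions (41.9 and 41.8), and the boxes overlap.

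Hotspots, the broader accessible stretches that the authors deposited beside the peaks, gave the same order of the classes. All 1797 regions lay in a hotspot of each replicate, as did every shared region. The deposited −log10 q of a hotspot stops at 100. At that cap were the hotspots of 52.6% of the lncRNA-only starts in replicate 1 (interval 50.3 to 54.9; 50.7% of all shared regions) and of 62.0% in replicate 2 (59.7 to 64.2; 58.3% of all shared regions). At coding starts the shares were 67.3% and 73.0%, and at other distal regions 44.4% and 52.4%. The lncRNA-only share was thus close to that of all regions in each replicate. Single regions could differ in signal and hotspot value. G730013B05Rik, the weakest by signal, lay in hotspots at the cap in both replicates. Trp53cor1, with signals of 62 and 77, lay in hotspots of only 2.76 and 2.67. The hotspots were also of intermediate width, with a median of 314 bp in replicate 1 and 340 bp in replicate 2 at lncRNA-only starts, 514.5 and 583 bp at coding starts, and 255 and 273 bp at other distal regions.

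CpG-rich sequence, which marks most promoters of broadly expressed genes in mammals, was present at far fewer lncRNA-only than coding starts. A region was called CpG-rich when the 500 bp around its centre had at least 50% G and C and a CpG count of at least 0.6 of that given by its C and G content. This was met by 13.9% of the lncRNA-only starts (249, interval 12.3 to 15.5), 54.3% of the coding starts (53.7 to 54.8) and 1.53% of the other distal regions (1.43 to 1.63), against 17.1% of all shared regions. The intervals of the 3 classes did not overlap. The median G and C content of the region itself was 52.6% at lncRNA-only starts, 60.6% at coding starts and 48.7% at other distal regions. Regions with 50% or more of their bases masked as repeats made up 2.84% of the lncRNA-only starts (51, interval 2.17 to 3.71), 1.41% of the coding starts, 6.34% of the other distal regions and 4.77% of all shared regions.

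Within the CpG classes, over all distances up to 1 kb, the median signals of lncRNA-only and coding starts lay close together. The 249 CpG-rich lncRNA-only starts had a median signal of 73 in replicate 1 and 85 in replicate 2, against 79 and 90 at 16045 CpG-rich coding starts and 60 and 72 at 884 CpG-rich distal regions. The 1548 CpG-poor lncRNA-only starts had medians of 51 and 63, the same values as at 13531 CpG-poor coding starts, and 56976 CpG-poor distal regions had 46 and 57. Coding starts thus exceeded lncRNA-only starts by 6 and 5 units among CpG-rich and by 0 among CpG-poor regions, against 11 in each replicate over both kinds together. The split was chosen after the values had been seen and was not tested. The split did not separate regions by distance from the start. Within 100 bp the medians in replicates 1 and 2 were 57 and 71 at lncRNA-only and 82 and 93 at coding starts.

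**Figure D2:**
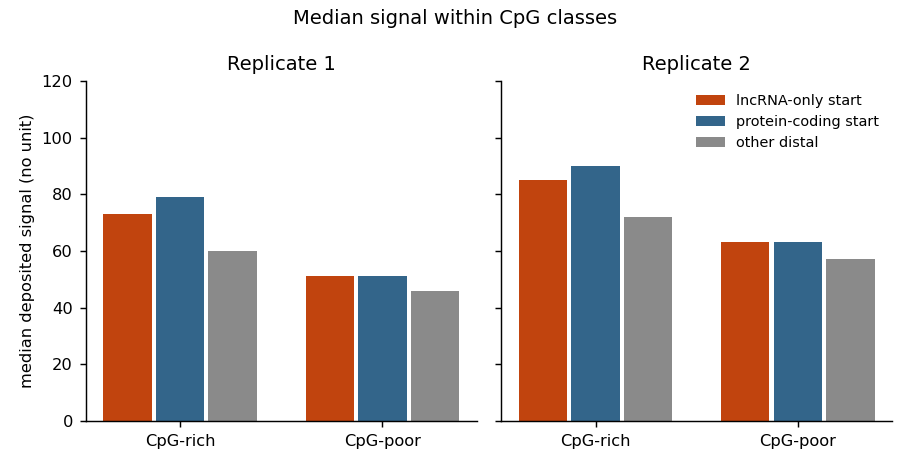
Median deposited signal (vertical axis, no unit) of lncRNA-only starts, protein-coding starts and other distal regions within CpG-rich and CpG-poor regions, in each replicate. Among CpG-poor regions the lncRNA-only and coding bars are equal (51 and 51 in replicate 1, 63 and 63 in replicate 2), and among CpG-rich regions the lncRNA-only bar is 6 and 5 units lower.

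The bases of each region were searched for 17 motifs on both strands, and a region could match several. Motifs are spelled where first named, with N for any base; CTCF, NFY, NRF1, YY1, HNF1, SRF and RFX were searched as longer consensus motifs and are given by name. AP-1 (TGANTCA) was the most frequent, in 235 lncRNA-only starts (13.1%), the same share as in all shared regions (13.1%). The motif of GATA factors (AGATAA), which include the foregut regulators GATA4 and GATA6, was in 8.85% of lncRNA-only starts and 10.1% of all regions. FOXA (TGTTTAC), the motif of the endoderm pioneer factors, was in 5.12% against 4.77%. The motif of HNF4 (CAAAGTCCA), a nuclear receptor of endoderm, was in 1.11% against 1.03%. TEAD (GGAATGT), the motif of the partners of the Hippo pathway coactivators, was in 3.4% against 3.23%. The share of all regions lay within the 95% interval of the lncRNA-only share for each of these motifs. All regions are a mixture, and for each of these motifs the lncRNA-only share lay between those of coding starts and other distal regions. AP-1 matched 5.88% of coding starts and 16.45% of other distal regions, and GATA 4.49% and 12.6%.

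CTCF, the insulator protein, matched in 78 lncRNA-only starts (4.34%, interval 3.49 to 5.38), against 5.30% of all shared regions. Of the motifs typical of promoters, ETS (CCGGAAG) matched 3.78% of lncRNA-only starts and 3.53% of all regions, and NFY 4.40% and 3.74%. The GC box (GGGCGGGG), bound by SP and KLF factors, matched 6.79% and 7%. CRE (TGACGTCA), the cyclic AMP response element, matched 1.34% (interval 0.899 to 1.98) against 0.817%, and the core promoter element TATA box (TATAAA) 5.40% (4.45 to 6.54) against 6.82%; the share of all regions lay below the interval for CRE and above it for the TATA box. SRF, the smooth muscle and growth regulator, matched 0.835% against 0.831%. The rarest were NRF1 with 5 regions (0.278% against 0.280%), GRHL (AACCGGTT) with 3 (0.167% against 0.208%), and YY1, HNF1 and RFX with 1 region each (0.0557%), against 0.191%, 0.0351% and 0.0351% of all shared regions. By class, ETS, NFY, the GC box and CTCF matched 8.47%, 7.52%, 17.8% and 1.5% of coding starts. At other distal regions these motifs matched 1.44%, 2.14%, 2.45% and 6.89%, so the lncRNA-only shares lay between the 2 classes. CRE matched 1.76% of coding starts and 0.417% of other distal regions, and the TATA box 3.65% and 8.43%. Their lncRNA-only shares lay between the classes too.

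The motif content of lncRNA-only starts differed between CpG-rich and CpG-poor regions. For the GC box, ETS, NFY, AP-1 and GATA the difference had the same direction at coding starts and other distal regions, so it was not particular to lncRNA-only starts. Of the CpG-rich regions 22.1% held a GC box, 8.03% an ETS and 8.03% an NFY match, against 4.33%, 3.10% and 3.81% of the CpG-poor regions. AP-1 matched 4.42% of the CpG-rich and 14.5% of the CpG-poor lncRNA-only starts, and GATA 2.81% and 9.82%. At coding starts the GC box matched 26.5% of the CpG-rich and 7.46% of the CpG-poor regions and AP-1 2.54% and 9.85%, and at other distal regions the GC box matched 18.7% and 2.19% and AP-1 4.30% and 16.6%. In the same order, coding starts had 12.7% and 3.5% for ETS, 9.94% and 4.66% for NFY, and 1.69% and 7.8% for GATA. Other distal regions had 5.88% and 1.37% for ETS, 5.09% and 2.09% for NFY, and 2.83% and 12.8% for GATA. The sequences above show both kinds: 1700096K18Rik and AL805899.1 are CpG-rich with GC boxes, while the more distant region of Airn is CpG-poor with AP-1, GATA and TEAD matches.

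The lncRNA-only regions gathered just upstream of the annotated start, as coding regions did, but less tightly. The median position of their centres was -33.5 bp (negative is upstream; quartiles -219.5 and 312.5), against -20.5 bp (-103.5 and 248.5) for coding starts. Upstream lay 57.7% of the lncRNA-only centres (interval 55.4 to 59.9) and 58.3% of the coding centres (57.8 to 58.9). Within 250 bp of the start lay 878 lncRNA-only regions (48.9%, interval 46.6 to 51.2), against 59.5% of the coding regions (58.9 to 60.1). The median distance without regard to side was 263.5 bp for lncRNA-only and 137.5 bp for coding regions.

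**Figure D3:**
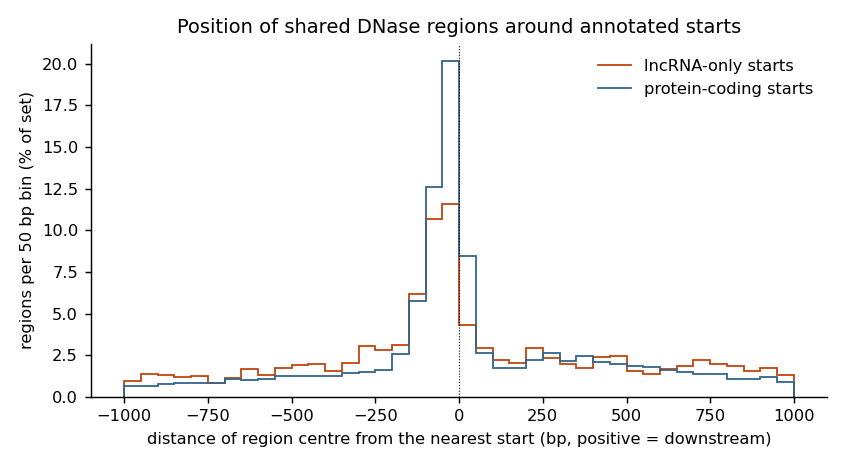
Percentage of regions (vertical axis) per 50 bp bin of distance from the nearest annotated start (horizontal axis, bp, positive downstream) for lncRNA-only and protein-coding starts. Both sets peak just upstream of the start; 48.9% of lncRNA-only and 59.5% of coding centres lie within 250 bp.

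Promoter features were concentrated in the lncRNA-only regions nearest to the start. The 531 regions centred within 100 bp of the start had a median signal of 57 in replicate 1 and 71 in replicate 2. The 535 regions centred 500 to 1000 bp away had 50 and 61. Coding regions at the same distances had 82 and 93 within 100 bp, and 48 and 61 at 500 to 1000 bp. From the nearest to the farthest of 4 distance bins the CpG-rich share was 19.8%, 14.1%, 14.6% and 7.29%, the ETS share 7.53%, 2.88%, 2.6% and 1.5%, and the NFY share 8.29%, 4.04%, 2.34% and 2.24%. These shares were highest in the nearest bin, while AP-1 showed no such order, with 11.9%, 14.4%, 11.7% and 14.4%. Coding starts in the nearest bin had shares of 70.9% for CpG-rich sequence, 13.9% for ETS, 10.6% for NFY and 3.72% for AP-1. Even within 100 bp of the start, lncRNA-only regions thus had fewer CpG-rich sequences and more AP-1 matches than coding regions.

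**Figure D4:**
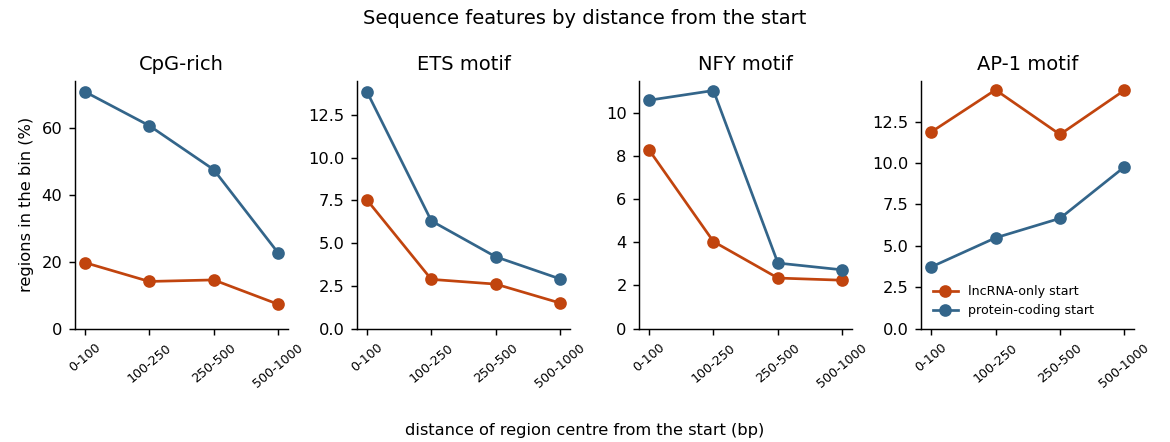
Share of regions (vertical axes, %) that are CpG-rich or hold an ETS, NFY or AP-1 motif, by distance of the region centre from the start (horizontal axes, bp), for lncRNA-only and protein-coding starts. ETS falls with distance from 7.53% to 1.5% across the lncRNA-only bins, and AP-1 is higher at lncRNA-only than at coding starts in every bin.

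Most lncRNA genes with a start away from coding genes were not accessible at this depth. Of 7263 such genes, 1336 had a shared region within 1 kb of such a start, which is 18.4% (interval 17.5 to 19.3). Of 21938 protein-coding genes 66.2% had a shared region within 1 kb of a start. In single replicates 21.2% of the lncRNA genes had a peak there in replicate 1 and 23.2% in replicate 2, and 500 genes had one in a single replicate only. Numbers of starts were not matched between coding and lncRNA genes, and a gene with more starts has more chances to be open. Of the lncRNA genes with 1 start 15.8% were open, and of those with 2 or more 27.3%. The share was 31.5% among processed transcript genes (interval 27.2 to 36.1), 18.7% among antisense genes (16.8 to 20.8), 17.6% among lincRNA genes (16.6 to 18.7) and 10.8% among sense intronic genes (7.34 to 15.5). The Y chromosome holds 551 of the 7263 genes and 1 open gene, and without it the share was 19.9%. Because the depth is unknown, a start without a peak is one not detected, not one that is closed. With a window of 250 bp, 878 regions remained and 11.4% of the genes were open, and with 2.5 kb there were 2950 regions, 29.8% of them within 250 bp of the start. When peaks below the median signal of their replicate were dropped, there were 1141 regions and 12.2% of the genes were open.

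Peaks at lncRNA-only starts of replicate 1 were found in the other replicate in a larger share than all its peaks, and those of replicate 2 in about the same share. Of 2258 such peaks in replicate 1, 81.8% (interval 80.2 to 83.3) overlapped a peak of replicate 2, against 77.6% of all peaks of replicate 1. Of 2616 in replicate 2, 70.4% (68.6 to 72.1) overlapped a peak of replicate 1, against 70.7% of all peaks of replicate 2. At coding starts the shares were 83.9% and 74.5%, and at other distal regions 74.4% and 69.7%. Peaks at lncRNA-only starts that were not found again were weaker, with a median signal of 29 in replicate 1 and 39 in replicate 2, against 53 and 65 for those found again. Across the 1797 regions the percentiles of the replicates had a Spearman correlation of 0.912, and 0.910 across all shared regions; this describes a pair of libraries and regions are not independent. The median difference between the replicates was 6.78 percentile points. Gm15499, an antisense gene, differed most, with 35 in replicate 1 and 79 in replicate 2.

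A list of 133 names of well-known lncRNAs and microRNA host genes was looked up. Of these, 35 held a lncRNA-only region, 29 had all their starts within 5 kb of a coding start, 26 had no shared region at their lncRNA-only starts, and 43 names were not used in the annotation. Names were matched by symbol only, and some genes were listed under several names, so the 35 leave out genes annotated under another symbol. Chaserr was among the 43, although the most accessible region belongs to it under the symbol 1810026B05Rik. Mir205hg was too, although Mir205 lies in 4631405K08Rik, which had regions. Among the 29 were Gas5, Tug1 and Snhg1, which had a shared region near a start, and Hottip and Hoxa11os, which had none. Among the 26 were Hotair, a HOX cluster lncRNA, Miat, Pantr1 and the neural Dlx6os1, with no shared region near any start. Fendrr, a lncRNA of lateral mesoderm next to Foxf1, had none at a lncRNA-only start but had a shared region at another start. In 26 of the 35 genes (74.3%, interval 57.9 to 85.8) the strongest region exceeded the median of all shared regions in both replicates. The same was so for the strongest region of 51.2% of all 1304 lncRNA genes with a region (48.4 to 53.9), for 47.5% of the 1797 regions taken singly and for 43.2% of all shared regions. The strongest of several regions is high by choice, and the listed genes were not tested against the others. In 18 of the 35 genes the strongest region was CpG-rich, against 13.9% of all lncRNA-only regions and 17.1% of all shared regions. The CpG-rich share of the strongest region over all 1304 genes was not computed, so no difference is read from this count.

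The starts of small nucleolar RNA host genes, whose introns carry the guides of ribosomal RNA modification, had strong and weak regions. At the strongest region of each gene Snhg8 had 113 in replicate 1 and 123 in replicate 2, Snhg6 had 109 and 120, and Snhg15 had 105 and 107. Snhg12 followed with 95 and 109, Snhg5 with 98 and 105, and Snhg17 with 84 and 107. The strongest region of each of these 6 listed genes was CpG-rich and centred within 100 bp of the start. Over all lncRNA-only regions 13.9% were CpG-rich and 29.55% were centred within 100 bp. Those shares are of regions taken singly, so no difference is read from them. Of the 13 regions of the 6 genes, 5 did not exceed the median of all shared regions in either replicate. Examples are 31 and 49 at Snhg15 and 29 and 47 at Snhg5. Snhg20 was not on the list, and its region had 89 and 101, centred 22.5 bp from its start. Dancr, a lncRNA known for keeping progenitor cells undifferentiated, was not on the list and was named after its values of 120 and 119 were seen.

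Malat1 and Neat1 are abundant nuclear lncRNAs. Malat1, a component of nuclear speckles, had 4 regions, the strongest with 100 in replicate 1 and 114 in replicate 2 but centred 938.5 bp from the start. Its region centred 20.5 bp from a start had 93 and 99. Neat1, the scaffold of paraspeckles, shared its strongest region with the antisense gene Frmd8os, which starts 145 bp away on the other strand. That region had 108 and 106 and was centred 112.5 bp from a Neat1 start. The single region credited to Neat1 itself was weak, with 37 and 50, so the crediting rule moves this gene far down the order.

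X-linked and imprinted lncRNAs covered the whole range. Ftx, a positive regulator of Xist, had 96 in replicate 1 and 116 in replicate 2, and Jpx, another Xist activator, had 60 and 75. Xist, the lncRNA that silences an X chromosome in female cells, had 38 and 62, and its antisense repressor Tsix had 23 and 32, the lowest of the 35. Among imprinted lncRNAs Kcnq1ot1 had 86 and 103 and Airn 77 and 96, both of which silence neighbouring genes on the paternal allele. Peg13 had 63 and 86, Meg3 64 and 77, and H19 43 and 46. The deposited peaks do not separate the alleles or the sexes. The sequences shown above for Meg3 and Airn belong to other regions of these genes, that of Meg3 at its start with 41 and 55 and that of Airn farther from it with 80 and 90.

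Other listed lncRNAs ranged from high to low. Carmn, a lncRNA of smooth muscle, had 62 in replicate 1 and 53 in replicate 2, and Bvht, found in cardiac differentiation, had 77 and 88. Trp53cor1, a p53 target also called lincRNA-p21, had 62 and 77. Pvt1, the neighbour of Myc, had 92 and 90, and Lockd, which lies downstream of the cell cycle inhibitor gene Cdkn1b, had 92 and 95. Rmst and Mir9-3hg, both known from neural tissue, were near the low end with 31 and 33 for Rmst and 30 and 40 for Mir9-3hg.

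**Figure D5:**
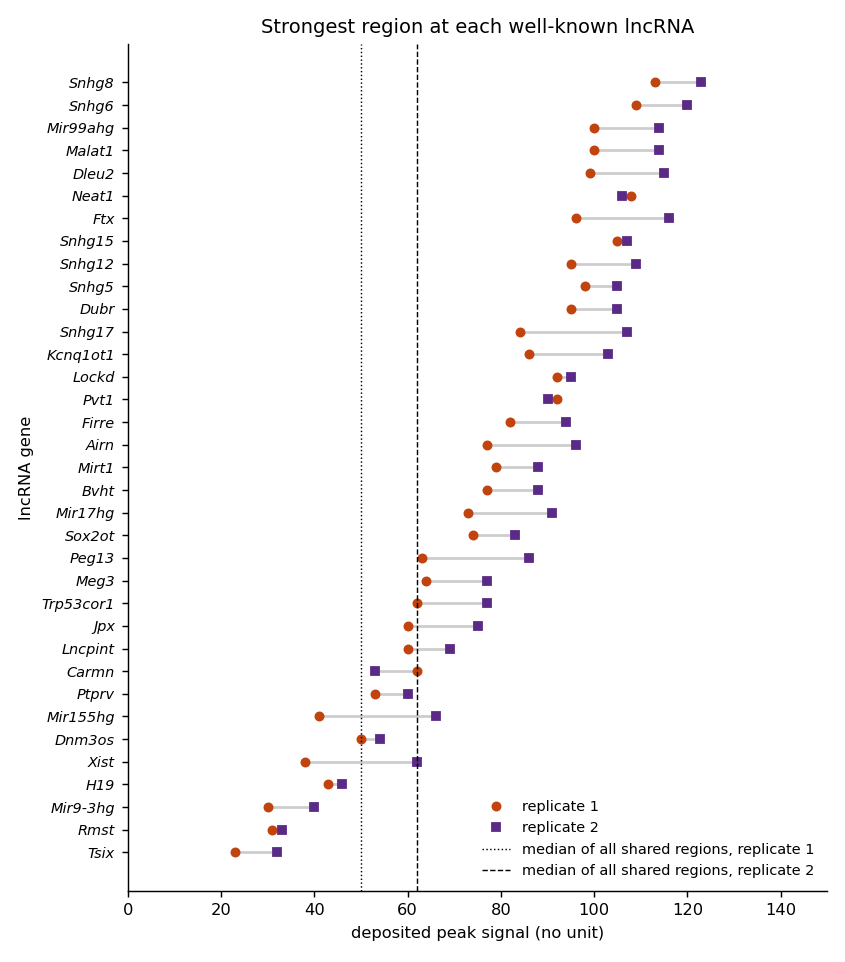
Deposited signal (horizontal axis, no unit) in replicate 1 (circles) and replicate 2 (squares) of the strongest lncRNA-only region within 1 kb of a start of each of 35 well-known lncRNA genes (vertical axis, ordered by mean percentile); vertical lines mark the medians of all shared regions, 50 and 62. Among these genes, which were matched by symbol, Snhg8 leads with 113 and 123, and Tsix is last with 23 and 32. Chaserr, annotated as 1810026B05Rik with 128 and 132, was not matched and is not shown.

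A larger share of microRNA host genes than of lncRNA genes in general had an open start. Of 57 lncRNA genes with a lncRNA-only start that hold a microRNA hairpin on the same strand, 34 were open (59.7%, interval 46.7 to 71.4), against 18.4% of all 7263. Hosts had more annotated starts, with a median of 2 against 1, and a gene with more starts has more chances to be open. Among genes with 1 start, 13 of 26 hosts were open (50%, interval 32.1 to 67.9), against 15.8% of 5613 genes (14.8 to 16.7). Among genes with 2 or more starts, 21 of 31 hosts were open (67.7%, 50.1 to 81.4), against 27.3% of 1650 genes (25.2 to 29.5), but these hosts had a median of 7 starts and the 1650 genes a median of 2, so the numbers of starts were not matched. The hosts were looked at after other values had been seen, and the difference was not tested. A region was credited to 32 of the hosts, which hold 51 hairpins.

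Mature microRNAs of these hosts are shown because some of the hosts hold microRNAs with the same seed. They are RefSeq sequences of GRCm38.p6, 5′ to 3′, with the seed (bases 2 to 8) in capitals.
mmu-let-7a-5p: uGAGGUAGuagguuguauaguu
mmu-let-7f-5p: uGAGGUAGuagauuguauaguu
mmu-let-7d-5p: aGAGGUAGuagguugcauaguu
mmu-let-7c-5p: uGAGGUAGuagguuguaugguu
mmu-miR-99a-5p: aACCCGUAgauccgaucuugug
mmu-miR-100-5p: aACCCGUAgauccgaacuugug
mmu-miR-17-5p: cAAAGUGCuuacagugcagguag
mmu-miR-20a-5p: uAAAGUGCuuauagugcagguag
mmu-miR-205-5p: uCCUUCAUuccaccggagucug
mmu-miR-194-5p: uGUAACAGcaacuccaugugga
mmu-miR-215-5p: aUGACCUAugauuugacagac
mmu-miR-31-5p: aGGCAAGAugcuggcauagcug
mmu-miR-199a-5p: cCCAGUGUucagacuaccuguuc
The 4 let-7 microRNAs share 1 seed, as do miR-99a with miR-100 and miR-17 with miR-20a, while miR-205, miR-194, miR-215, miR-31 and miR-199a each have their own. Mir99a and Mir100 lie in different hosts, but Mir17 and Mir20a lie in the same one. A shared seed does not link the accessibility of the starts.

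The let-7 family restrains growth genes such as Hmga2 and Lin28 as tissues mature, and its hosts were open at several loci. 6720427I07Rik, which holds Mirlet7a-1, Mirlet7f-1 and Mirlet7d, had a region with 122 in replicate 1 and 121 in replicate 2 and another, the CRE-bearing sequence shown above, with 102 and 119. Mir99ahg, the host of Mir99a and Mirlet7c-1, had 100 and 114 at its strongest of 7 regions. 3110039I08Rik, which holds Mir100, Mirlet7a-2 and Mir125b-1, had 74 and 91 at its strongest of 7, and Lncppara, which holds Mirlet7c-2 and Mirlet7b, had 71 and 88 at its strongest of 3. These are the strongest regions of each host, and the weakest had 36 and 37 at Mir99ahg and 33 and 45 at 3110039I08Rik.

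Among the open hosts, 3 that hold microRNAs known from epithelia were picked out after their values were seen. 4631405K08Rik holds Mir205, an epithelial microRNA that targets the Zeb transcription factors, and had 102 in replicate 1 and 114 in replicate 2 in a CpG-poor region centred 56.5 bp from its start. 2010103J01Rik holds Mir194-1 and Mir215, which are abundant in gut epithelium, and had 89 and 104 in a CpG-poor region 86.5 bp from its start. AL805899.1 holds Mir31 and had 95 and 93 in a CpG-rich region. These regions can be read above, with a single NFY match for Mir205, GATA and NFY matches for Mir194-1 and Mir215, and a pair of GC boxes for Mir31.

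Other hosts of well-known microRNAs ranged widely. Dleu2, which holds Mir16-1, had 99 in replicate 1 and 115 in replicate 2 at its strongest of 6 regions, and Gm4258, which holds Mir181a-1, had 95 and 112 at its stronger of 2. Dnm3os, the mesenchymal host of Mir199a-2 and Mir214, had 50 in replicate 1 and 54 in replicate 2 in the region with the SRF match shown above. Mir17hg, the host of the growth-promoting cluster with Mir17 and Mir20a, had 73 and 91 at its strongest of 3 regions. Mir155hg, whose microRNA is known from activated immune cells, had 41 and 66, against medians of 50 and 62 over all shared regions.

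Of a list of 79 regulators of foregut and stomach development and of the stomach wall, 26 were the nearest protein-coding gene of 40 lncRNA-only regions, which is 2.23% of them (interval 1.64 to 3.02). Of all shared regions over 5 kb from coding starts 1.93% had such a nearest gene, a share within the interval, so the regions were not shown to lie nearer to these genes than other distal regions. Hes1, the Notch target, was nearest to 5 of them, and Id2 and Nr2f2 to 3 each. The strongest was at 4632428C04Rik near Hes1, with 106 in replicate 1 and 117 in replicate 2. Gm15458, near the mucous cell factor gene Spdef, had 105 and 112, and Gm12506, near the epithelial factor gene Klf4, had 107 and 103. Gm47705 near Id2 had 105 and 101, and Gm26642 near the epithelial factor gene Elf3 had 92 and 104. These were the 5 with the highest mean percentile of the 40. The weakest of the 40, at 1700029M20Rik with Grhl3 nearest, had 15 and 13. The named regions lay 55280 bp from a coding start of Hes1, 5576 bp from Spdef and 72630 bp from Klf4. Those near Id2 and Elf3 lay 84400 and 9018 bp away. In RefSeq the region of Gm15458 lay 3528 bp from a coding start of Spdef. Being nearest does not tie a region to a gene.

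Some of these starts are lncRNA-only in a single annotation. In RefSeq, 121 of the regions (6.73%) lay within 5 kb of a protein-coding transcript start and 87 within 1 kb, of which 50 were near a curated transcript. Zswim6, Ptpmt1, Spata5l1 and Trerf1 are typed as non-coding in the mm10 release used here and as protein-coding in RefSeq, and Gm37494, a lincRNA gene, starts at a RefSeq coding start. The strongest region of Zswim6 had 101 in replicate 1 and 120 in replicate 2, and that of Gm37494 had 116 and 122. Without the 121 regions 1676 remained, with 13.3% CpG-rich, against 13.9% with them. A lncRNA pair starting in opposite directions was present at 28 regions, of which 10 were CpG-rich.

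The signal was also read on either side of the distance limits of the rule. The 96 regions centred 900 to 1000 bp from a lncRNA start had median signals of 47 in replicate 1 and 59.5 in replicate 2, and the 97 regions just outside, up to 100 bp farther, had 59 and 70. The 66 regions 5 to 6 kb from a coding start had 51 and 63.5, and the 65 regions at 4 to 5 kb, which were left out, had 57 and 72. Both sets just outside the rule had higher medians than those just inside.

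Checks of the tissue used the promoters of marker genes. Within 1 kb of a start a shared region was found in 12 of 12 stomach epithelium, 5 of 6 smooth muscle and 1 of 4 immune markers. It was found in 0 of 4 erythroid, 1 of 2 hepatocyte and 1 of 3 pancreas markers. The smooth muscle exception was Acta2. Of all 21938 protein-coding genes 66.2% had such a region, and these short lists were not tested against that share. The lists held 139654 peaks in replicate 1 and 153178 in replicate 2.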

How the data were processed

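DNase-seq was measured in 2 biological replicates of newborn stomach. The authors deposited, per replicate, a peak list with a signal value per peak and a hotspot list with a −log10 q value per hotspot, on build mm10 per the labels. The aligner, caller and read numbers, which set the depth, were not given in the sources used here, so depth is unknown, and weak regions may be missing. Peaks on the 19 autosomes, X and Y were used (139374 and 152779). Overlapping peaks of both replicates (1 bp or more) were merged, and 96.2% of the regions were made of 2 peaks. Signals were compared within a replicate only, as ranks, medians and differences of medians. The unit is unknown, so the size of such a difference has no known scale. Starts and gene types came from GENCODE M21, sequence and repeat masking (lower case) from the RefSeq copy of the same build, and microRNAs from RefSeq. Shares have 95% Wilson intervals for counting error only. With 1 group, no test was possible, and regions are not replicates. The regions and lists were chosen with earlier results of these data known. The named regions were the 10 with the highest mean percentile, the listed lncRNAs, the genes with the most regions, the highest-ranked match of a motif, and the 5 highest of the 10 strongest nearest to a listed regulator; microRNA hosts, Dancr, Gm15499 and the genes typed differently in RefSeq were named after their values were seen. Python 3.11.15, numpy 2.4.6, pandas 2.3.3 and matplotlib 3.10.9 were used, and the code was tested on simulated data.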

Additional observations from a re-analysis of the deposited data

How the results depend on the processing

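In all 12 alternatives that redraw the regions, lncRNA-only starts had a lower median percentile and a lower CpG-rich share than coding starts and a higher median percentile and CpG-rich share than other distal regions. Of 139 recomputed values, 84 stayed near the reported value and 55 moved; a share counted as near within its 95% counting interval, the percentile within the spread between replicates, and the number of regions within 1.5 times. The causes were not tested. As reported, the median percentile was 54.2 and, averaged over the replicates, 57.3% of the regions were in a hotspot at the cap. In peaks of a single replicate there were 2201 to 2548 regions (1.63 to 1.71% of all), with median percentiles of 54.8 to 56.4, hotspots at the cap in 46.0 to 48.5%, CpG-rich shares of 11.9 to 12.7%, CTCF in 3.14 to 3.50%, AP-1 in 11.6%, 46.7 to 47.0% within 250 bp, 21.2 to 23.2% of genes open, and 2.23 to 2.43% nearest to a listed regulator. With the stronger 50% of the peaks there were 1141 regions (1.85%), with a median percentile of 52.1, 75.7% at the cap, 17.5% CpG-rich, 51.4% within 250 bp, 12.2% of genes open, and 89.4 and 78.2% of the peaks of replicates 1 and 2 found again. With a start window of 250 bp there were 878 (0.832%), with a percentile of 58.0, 60.0% at the cap, 17.5% CpG-rich, 3.30% with CTCF, 11.4% of genes open, and 85.3 and 73.1% found again; the share within 250 bp is then fixed. With 2.5 kb there were 2950 (2.80%), with a percentile of 51.4, 53.8% at the cap, 9.86% CpG-rich, 29.8% within 250 bp, 27.2% of genes open and 79.8% of the peaks of replicate 1 found again. The share of regions and the percentile were 1.94% and 55.3 at more than 2 kb from coding starts, 1.45% and 53.0 at more than 10 kb, 1.48% and 53.6 with lincRNA and antisense genes only, and 1.59% and 53.6 without regions within 5 kb of RefSeq coding starts, which was chosen after seeing the data. Counting TEC genes (still to be tested by experiment) gave 1.95%, 53.6 and 16.2% of genes open. The outermost start of each gene gave 1.51%, 46.5% within 250 bp and 17.3% of genes open. A 50% overlap of each peak gave a percentile of 54.7 and 76.4 and 65.7% found again. In 300 bp around the centre, 15.6% were CpG-rich and 15.8% held AP-1. No paired analysis was possible because there is 1 group. Depth, which is unknown, limits which weak starts could be found.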

Other observations

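The number of lncRNA-only regions differed between chromosomes in a way that was noticed in the data and not tested. On chromosome 17 there were 129 regions at 279 lncRNA genes with a lncRNA-only start, and 32.3% of these genes were open. Chromosome 13 had a similar number, 130, but at 501 such genes, of which 19.4% were open. On the remaining autosomes the open share lay between 14.3% on chromosome 14 and 24.9% on chromosome 11, and on the X chromosome it was 17.4%. As a share of all shared regions, lncRNA-only regions were 2.80% on chromosome 17, 2.73% on chromosome 13 and 1.31% on chromosome 11. Chromosome 13 had 59.8 lncRNA-only genes per 100 protein-coding genes, against 26.4 on chromosome 17 and 18.1 on chromosome 11.

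Pairs of lncRNA genes that start in opposite directions had a median percentile of 68.7 in replicate 1 and 72.4 in replicate 2, over 28 regions, against 54.5 and 54.4 over all lncRNA-only regions, and 35.7% of the 28 were CpG-rich.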
